A study of Mus musculus with 6 samples.

Results

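Expression of 10 genes of cell cycle control and the p53 pathway was examined in mouse liver by RNAseq. They are *Wee1*, *Cdkn1a*, *Trp53inp1*, *Trp53*, *Mdm2*, *Ccng1*, *Btg2*, *Gadd45a*, *Gadd45b* and *Bbc3*, taken by their symbols from the deposited table of 16123 genes, where all 10 were found. They were chosen by the authors' ratio of KO over WT in these livers, which was known when they were put together, so that ratio is given for them as a description and without a test. The wild-type (WT) livers came from mice whose strain the labels give as C57BL/6Rj. The *Txndc5*-deficient (KO) livers came from C57BL/6JRj-Txndc5<em2Mdnp>/Ciba mice, in which exon 3 of *Txndc5*, the gene of an endoplasmic reticulum disulfide isomerase, was removed by CRISPR. Animals of both genotypes were males of 2 months born to heterozygous parents, received the purified chow for 4 weeks and were killed after a fast of 16 h. The KO line descends from 1 founder male crossed to C57BL/6J. Each genotype had 3 libraries, and each library was poly-A RNA pooled from 3 livers. The 6 libraries held 44.0 to 46.1 M clean reads. *Txndc5* itself was 29.7-fold lower in KO, with the authors' value at 2697 in WT and 90.8 in KO, in the direction of the labels.

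WEE1 is a kinase that phosphorylates the cyclin-dependent kinase CDK1 and so holds cells before mitosis, and its gene is a known output of the circadian clock in liver. p53, encoded by *Trp53*, is a transcription factor that is stabilised by damage and other stress and switches on genes that stop the cell cycle, repair DNA or start apoptosis. MDM2 marks p53 for degradation and is itself a p53 target, which closes a feedback loop. p21, the product of *Cdkn1a*, inhibits cyclin-dependent kinases and is the classical p53 target, although in liver its transcription also answers to fasting, glucocorticoids and clock factors. Most hepatocytes of the adult liver do not divide.

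Promoter sequences of the group were searched for the motif that p53 binds and for the E-box of clock factors. RefSeq windows of GRCm38.p6, from 250 bases before to 50 bases after a start site, were at hand for 8 of the 10 genes, with 11 start sites among them. No window of *Wee1* or *Trp53inp1* was used. Each window was searched for the p53 half-site pair, in which a pair of half-sites of 10 bases is separated by 0 to 13 bases, with at most 1 mismatch over the pair. The motif reads alike on both strands, and overlapping pairs were kept. Of 32851 windows of this length in the table, 206 (0.627%) held such a pair. Among the described genes it was present at the upstream start site of *Cdkn1a* and at that of *Ccng1*. The 250 bases before these start sites are printed first, with the half-sites in capitals. The third sequence is that of *Gadd45b*, where the capitals mark CACGTG, the palindromic E-box that clock factors and others recognise.

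*Cdkn1a*, chr17:29090729-29090978, plus strand: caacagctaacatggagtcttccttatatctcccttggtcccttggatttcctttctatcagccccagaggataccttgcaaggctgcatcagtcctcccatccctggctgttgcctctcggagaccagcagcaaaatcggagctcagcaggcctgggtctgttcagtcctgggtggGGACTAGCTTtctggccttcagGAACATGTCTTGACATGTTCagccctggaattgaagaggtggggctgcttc

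*Ccng1*, chr11:40755287-40755536, minus strand: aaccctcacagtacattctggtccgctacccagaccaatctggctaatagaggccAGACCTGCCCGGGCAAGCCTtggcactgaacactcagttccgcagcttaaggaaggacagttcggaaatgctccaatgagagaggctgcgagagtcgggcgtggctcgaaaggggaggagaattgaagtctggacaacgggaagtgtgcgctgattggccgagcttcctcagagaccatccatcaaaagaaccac

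*Gadd45b*, chr10:80929841-80930090, plus strand: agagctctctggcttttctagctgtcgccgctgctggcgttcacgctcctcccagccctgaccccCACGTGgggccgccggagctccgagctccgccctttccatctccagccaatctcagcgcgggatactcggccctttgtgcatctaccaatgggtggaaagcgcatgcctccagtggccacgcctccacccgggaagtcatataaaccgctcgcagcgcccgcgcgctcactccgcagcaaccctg

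In *Cdkn1a* the exact pair ran from base -73 to base -42 with a spacer of 12, counted from the start site as base 0. A second pair with 1 mismatch and no spacer ran from -51 to -32 and shared a half-site with the first. In *Ccng1* the pair had 1 mismatch and no spacer and ran from -195 to -176. With 2 mismatches allowed, *Gadd45a* also held a pair, as did 4.09% of all windows. CACGTG lay in 7.15% of the windows and in those of 3 of the 8 genes, at -185 in *Gadd45b*, at 10 in *Trp53* and at -64 in 1 of the 3 windows of *Bbc3*. The percentage counts windows and the 3 of 8 counts genes, which had 11 windows among them. These matches describe the letters of the windows alone, and binding was not measured.

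For each gene the authors deposited 1 value per genotype, in normalised reads, which are reads divided by DESeq2 size factors. As worked out from the values, the 2 split the mean over all 6 libraries by a ratio shrunken towards 1. The value of each genotype thus depends on all 6 libraries. These values carry no error. *Wee1* was the gene of the group with the highest ratio, at 54.1 in WT and 126 in KO, 2.33-fold higher in KO. *Trp53inp1* had the lowest, at 116 in WT and 44.5 in KO, and *Cdkn1a* was lower in KO as well, at 120 in WT and 66.9 in KO. *Trp53* and *Mdm2* lay near a ratio of 1. In all, 4 of the 10 genes lay past 0.5 on the log2 scale, *Wee1* and *Gadd45a* above and *Cdkn1a* and *Trp53inp1* below. Over all 11367 genes whose mean value was 10 or more, 10.4% lay past the same limit, 2.48% higher and 7.9% lower in KO. A limit of 1 was passed by 2 of the 10 genes (*Wee1* and *Trp53inp1*) and by 0.897% of all genes, and a limit of 0.25 by 8 of the 10 and by 35.2% of all. The choice of the genes used this ratio, so nothing is read from their shares. Nearest to the limit of 0.5 were *Gadd45a*, just past it with a log2 ratio of 0.57, and *Gadd45b*, short of it with -0.39. The median log2 ratio of the 10 genes was -0.08, beside -0.05 for all genes, with 5 genes above 0 and 5 below.

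**Figure D1:**
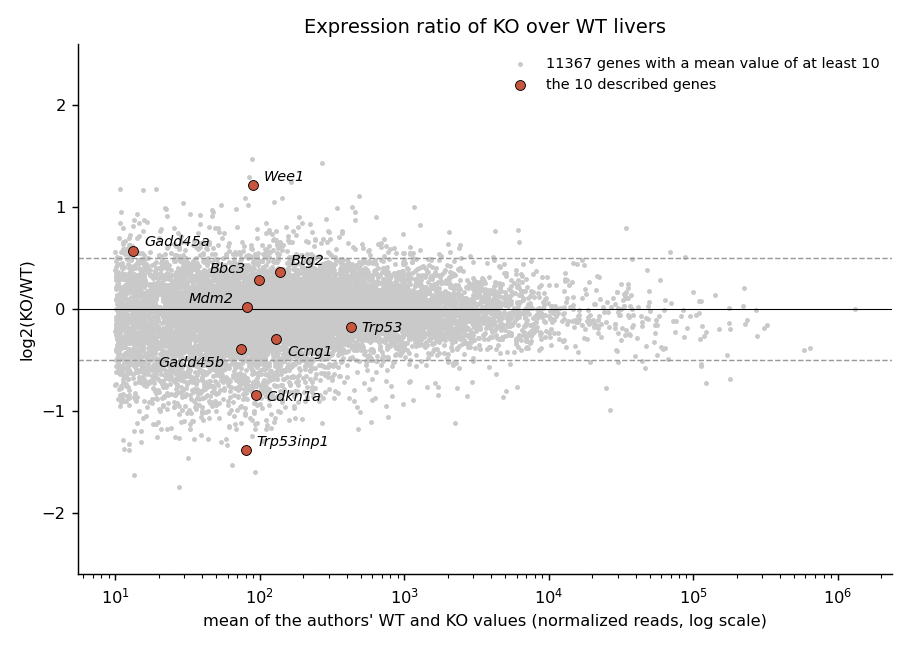
Log2 ratio of KO over WT against the mean of both genotypes on a log scale, for the 11367 genes of a mean value from 10 upward (grey) and the 10 described genes (red). Dashed lines mark 0.5 on the log2 scale. *Wee1* sits above and *Trp53inp1* below most genes of like level, and 6 of the 10 genes lie between the lines, while 4 genes beyond 2.6 on the log2 scale are off the axis.

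Levels of different genes were compared per kilobase of the length listed in the table. *Trp53* had the highest level per kilobase in both genotypes, with 253 in WT and 225 in KO. In WT the order then ran through *Gadd45b* (64.9), *Cdkn1a* (62.9), *Bbc3* (44.9), *Ccng1* (40.9), *Btg2* (39.2), *Mdm2* (26.2), *Trp53inp1* (21.3), *Wee1* (15.8) and *Gadd45a* (8.78). In KO the level of *Wee1* per kilobase was 36.9, which moved it from place 9 to place 5, and that of *Trp53inp1* was 8.20, the lowest of the group. Where reads per library could be had, neighbours in this order often lay within their spread: in WT, *Gadd45b* had 66.4 ± 25.1 and *Cdkn1a* 65.0 ± 22.0 normalised reads per kilobase (SD, n = 3).

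Whole reads per library could be recovered from the deposited values of 9054 genes whose normalised reads sum to at most 620 over the libraries, and these include 7 of the 10 genes. *Trp53*, *Ccng1* and *Btg2* have too many reads for this, so that their spread between libraries is unknown. The recovered libraries are known by genotype and size factor, which was 1.31, 1.04 and 0.886 in KO and 1.22, 0.879 and 0.818 in WT, and not by pool number. By summed reads, the library with the largest size factor stood apart in both genotypes. Summed over the 9054 genes it held 267098 normalised reads in WT against 188854 and 176904, and 217531 in KO against 180901 and 173518. Over the 4298 genes with a sum of at least 60, the median gene was 1.34-fold higher in it than in the mean of the other two in WT and 1.24-fold in KO. By mean Pearson r of log2(normalised reads + 1) with the other libraries, that of WT was the least alike (0.574). That of KO was the most alike (0.705). Ratios of the 7 genes are therefore given with and without the library with the largest size factor of each genotype. In a bulk sample, fewer cells that express a gene and less RNA per cell cannot be told apart. On the same 4298 genes, limma called 0 genes between the genotypes at an adjusted p under 0.05, with 69 genes at an unadjusted p under 0.05.

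**Figure D2:**
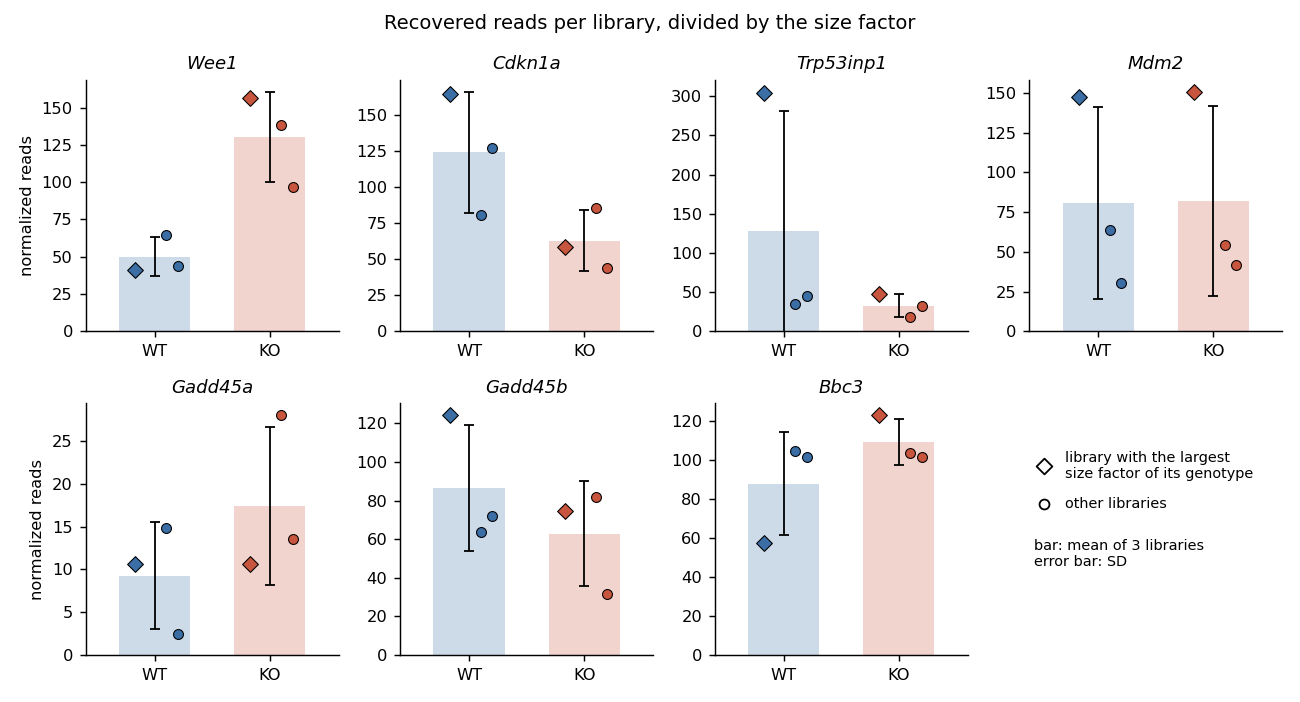
Normalised reads of the 7 genes with recovered reads, per library. Diamonds are the library with the largest size factor of its genotype, circles the others, bars the mean and error bars the SD of 3 libraries (the lower end for *Trp53inp1* in WT runs below 0 and is not drawn). The KO points of *Wee1* lie above all its WT points, and the WT mean of *Trp53inp1* rests on a single library. *Wee1* was chosen by its ratio, so nothing is read from its separation.

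*Wee1* is listed under NCBI Gene identifier 22390 and lies at chr7:110122046-110143286 on the plus strand of GRCm38 in GENCODE M21, with 11 exons. Its normalised reads were 156, 138 and 97.1 in the KO libraries with size factors 1.31, 1.04 and 0.886, and 40.8, 64.8 and 44.0 in the WT libraries with size factors 1.22, 0.879 and 0.818. The lowest KO library was thus above the highest WT library, a separation that 3.0% of the 4298 genes showed in this direction and 2.4% in the other. *Wee1* was chosen by its ratio, and its reads were picked from 3 possible sets with the help of that ratio. Nothing is therefore read from the separation. The values of *Wee1* rest on 86 to 205 reads in KO and on 36 to 57 reads in WT. The means were 130 ± 30.3 in KO and 49.9 ± 13.0 in WT (SD, n = 3), a 2.61-fold difference and 1.39 on the log2 scale. Without the library with the largest size factor of each genotype the log2 ratio was 1.11, in those libraries alone it was 1.94, and leaving out each library in turn gave 1.24 to 1.62. Among these 11367 genes, 99.9% had a lower ratio in the authors' values. An antisense gene, 1600010M07Rik, covers the whole of *Wee1* on the other strand, with values of 1.67 in WT and 1.94 in KO. Whether the counting used strand is not given in the sources used here, and without it reads from both cannot be told apart.

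The 5 genes whose levels most resembled those of *Wee1* over the 6 libraries, by Pearson's r of log2(normalised reads + 1) among 4297 genes, were *Fbln5* (r = 0.951), *Adgre1* (0.935), *Dvl2* (0.922), *Tspan17* (0.915) and *Il1rn* (0.915). With so many genes and 6 libraries, which share their depth and genotype, these r values are descriptions. *Il1rn*, which encodes the interleukin 1 receptor antagonist, had 116, 105 and 64.4 normalised reads in KO and 47.4, 54.6 and 25.7 in WT, in the order of libraries used above. *Adgre1*, the gene of the macrophage antigen F4/80, had 119, 126 and 97.1 in KO and 81.6, 78.5 and 72.1 in WT. *Adgre1* is also a Kupffer cell marker, and of the 5 markers of these resident macrophages it was the 1 past 0.5 on the log2 scale. The log2 ratios of the 5 ran from -0.05 to 0.50, with a median of 0.11. The highest of them in level, *Cd5l*, was at 832 in WT and 1142 in KO. The summed value of the 5 was 1983 in WT and 2306 in KO, and none of the 5 was at 0. The part of these cells in the *Wee1* ratio was not tested.

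*Cdkn1a* (identifier 12575) lies at chr17:29090976-29100727 on the plus strand. Its normalised reads were 58.7, 85.9 and 44.0 in KO and 165, 80.8 and 127 in WT. The groups overlap, since the KO library with size factor 1.04 is above the lowest WT library. The means were 62.9 ± 21.3 in KO and 124 ± 42.2 in WT (SD, n = 3), so p21 transcripts were 1.98-fold lower in KO. The log2 ratio from these reads was -0.98, and it was -0.68 without the libraries with the largest size factors and -1.49 in those alone. It stayed below 0 whichever library was left out, between -1.28 and -0.73.

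*Trp53inp1* (identifier 60599) encodes a nuclear protein that promotes p53-dependent cell death and also acts in autophagy. It lies at chr4:11156431-11174379 on the plus strand, in 4 exons. Its normalised reads were 47.2, 18.3 and 31.6 in KO and 305, 34.1 and 45.2 in WT. One WT library, that with size factor 1.22, thus held most WT reads of the gene, and the other WT libraries lay within the KO range. That library was 7.67-fold above the mean of the other two, and 1.07% of the 4298 genes exceeded this fold. The means were 32.4 ± 14.5 in KO and 128 ± 153 in WT (SD, n = 3), and the log2 ratio was -1.98. It was -0.29 without that WT library and -0.67 without the largest-factor library of both genotypes. *Trp53inp1* had the lowest ratio of the group in the authors' values, and of all the 7 genes with reads per library its ratio moved most when 1 library was left out.

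**Figure D3:**
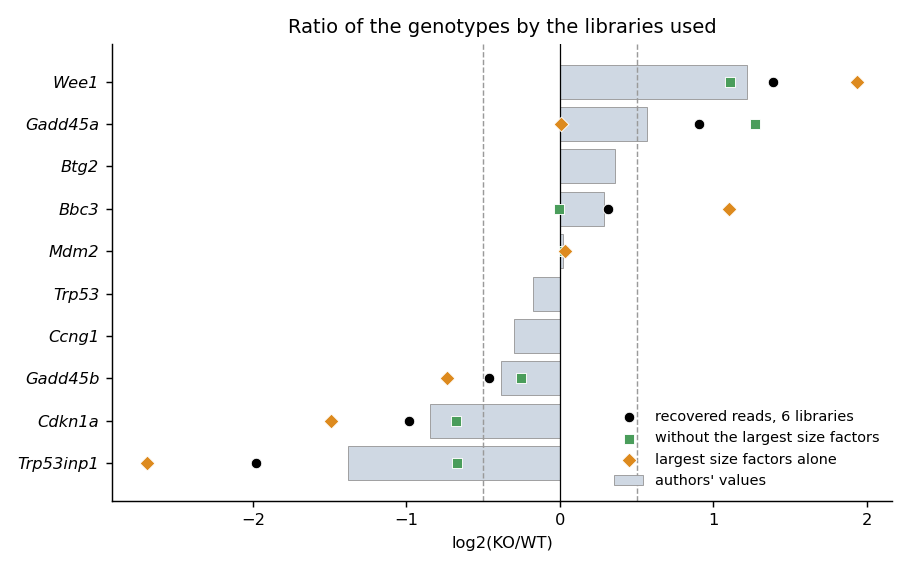
Log2 ratio of KO over WT for the 10 genes. Bars are the authors' values, black circles the ratio of means from recovered reads of 6 libraries, green squares the same without the library with the largest size factor of each genotype and orange diamonds those libraries alone. *Wee1* stays right of 0.5 and *Cdkn1a* left of -0.5 in each, while *Gadd45a* and *Bbc3* change with the libraries used.

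*Trp53* (identifier 22059, chr11:69580359-69591873, plus strand) had authors' values of 452 and 401 in WT and KO. Its log2 ratio was -0.17, and 50.4% of all genes had a larger ratio in either direction. The level of its transcript says nothing of the p53 protein, whose amount is mainly set by degradation. *Mdm2* (identifier 17246, chr10:117688875-117710758, minus strand) was at 80.9 in WT and 82.0 in KO. Its normalised reads were 151, 54.1 and 41.8 in KO and 148, 63.7 and 30.6 in WT, so the means of 82.2 ± 59.8 and 80.7 ± 60.4 (SD, n = 3) were far closer than the libraries within a genotype. In both genotypes the largest-factor library was about alike above the other two, 3.15-fold in KO and 3.14-fold in WT. Leaving out the largest-factor library of KO gave a log2 ratio of -0.75 and leaving out that of WT gave 0.80, while leaving out both gave 0.02.

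**Figure D4:**
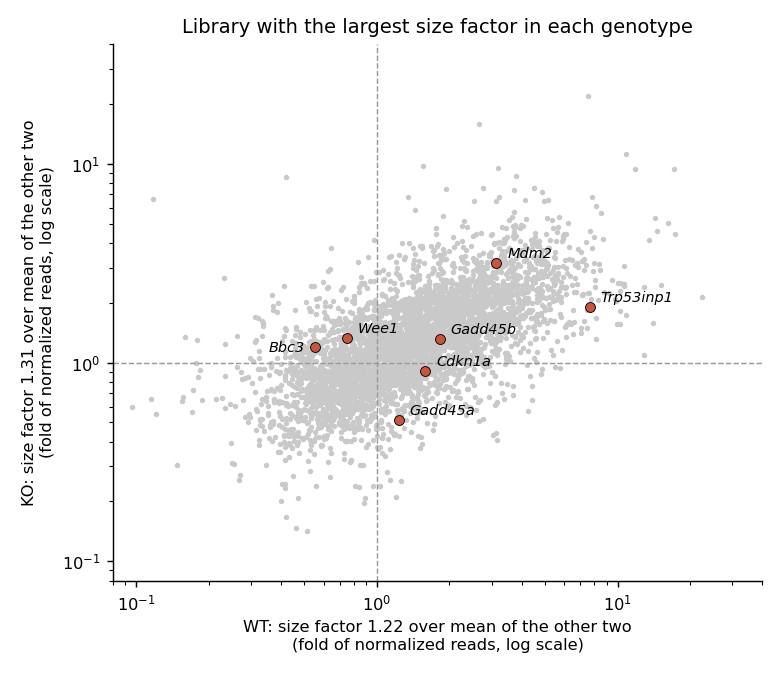
Normalised reads in the library with the largest size factor, as a fold of the mean of the other two libraries, in WT (horizontal) and KO (vertical), both on log scales, for 4289 genes with recovered reads (grey) and the 7 described ones (red). Genes with no reads on either side of a fold are not drawn. *Trp53inp1* lies far right and *Mdm2* high in both genotypes, while *Wee1* and *Bbc3* lie left of 1 in WT.

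In the authors' values, the other genes linked to growth arrest had smaller ratios than *Wee1*, *Cdkn1a* and *Trp53inp1*. *Ccng1*, encoding cyclin G1, a p53 target that acts with MDM2 and a phosphatase, had authors' values of 143 in WT and 117 in KO (identifier 12450, chr11:40748552-40755311, minus strand). *Btg2*, an antiproliferative p53 target that promotes shortening of poly-A tails, was at 121 in WT and 155 in KO (identifier 12227, chr1:134075170-134079120, minus strand). Their log2 ratios were -0.30 and 0.36, opposite in sign, and no spread is at hand for either. GADD45 proteins bind PCNA and CDK1 and activate stress kinase signalling, and their genes are induced by DNA damage and other stress. *Gadd45a* (identifier 13197, chr6:67035096-67037457, minus strand) had 10.7, 28.0 and 13.5 normalised reads in KO and 10.6, 14.8 and 2.45 in WT. The groups overlap, and the values rest on 2 to 29 reads per library. The means were 17.4 ± 9.29 in KO and 9.28 ± 6.28 in WT (SD, n = 3), and the log2 ratio was 0.91. It ranged from 0.38 without the KO library with size factor 1.04 to 1.41 without the WT library with size factor 0.879. Without the largest-factor library of each genotype it was 1.27, and in those libraries alone 0.01. A transcript on the other strand, E230016M11Rik, overlaps *Gadd45a* and was at 1.80 in WT and 1.51 in KO. *Gadd45b* (identifier 17873, chr10:80930073-80932204, plus strand) had 74.7, 82.1 and 31.6 normalised reads in KO and 124, 63.7 and 72.1 in WT. The groups overlap here too. The means were 62.8 ± 27.2 in KO and 86.6 ± 32.7 in WT (SD, n = 3), and the log2 ratio of -0.46 was -0.11 without the WT library with size factor 1.22. It was -0.26 without the largest-factor library of each genotype and -0.73 in those alone.

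*Bbc3* (identifier 170770, chr7:16308393-16318205, plus strand) encodes PUMA, the BH3-only protein through which p53 starts apoptosis. Its normalised reads were 123, 103 and 102 in KO and 57.2, 105 and 101 in WT. All 6 libraries but the WT library with size factor 1.22 lay between 101 and 123. The means were 109 ± 11.7 in KO and 87.8 ± 26.6 in WT (SD, n = 3), and the log2 ratio of 0.32 was 0.08 without that library, -0.01 without the largest-factor library of each genotype and 1.10 in those alone. In the same WT library *Bbc3* and *Wee1* were at their WT minimum, while *Trp53inp1*, *Cdkn1a*, *Mdm2* and *Gadd45b* were each at their WT maximum.

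Counted over the 7 genes with reads per library, 4 lay past 0.5 on the log2 scale, namely *Wee1*, *Gadd45a*, *Cdkn1a* and *Trp53inp1*. Of the 4298 genes, 29.3% did so by this unshrunken ratio. The same 4 genes were past it without the largest-factor library of each genotype, where the share of all genes was 36.3%. Without the WT library with size factor 1.22 alone, *Mdm2* took the place of *Trp53inp1*, and the share of all genes was 33.9%. *Wee1* and *Cdkn1a* were past the limit whichever library was left out. Of all genes 27.9 to 41.9% were past it in each such setting, and the share past it in every one was not counted. The reads of *Wee1* and of *Bbc3* were each picked from 3 possible sets and those of *Cdkn1a* from 5, by the shrinkage against the deposited ratio. They are thus not independent of that ratio, by which the genes were chosen.

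Further p53 targets, written as a list beside the 10 genes, gave a wider view of the pathway. Of 32 listed genes 23 reached a mean value of 10. Of these 1 lay past 0.5 higher in KO and 0 lower, beside 2.48% and 7.9% of all genes. The median log2 ratio of the 23 was 0.06. The gene past the limit was *Sesn2*, a stress-induced regulator of nutrient signalling, at 173 in WT and 250 in KO. *Tigar*, a regulator of glycolysis, was at 54.8 and 77.1, *Trp53inp2*, the paralog of *Trp53inp1*, at 2507 and 3442, and the repair nuclease gene *Ercc5* at 89.0 and 64.2, all within the limit. Of the 12 genes of this list that limma tested, 0 were called and 0 had an unadjusted p under 0.05. Beside 7.9% of all genes past 0.5 lower in KO, 2 of 11 genes of the p53 family and its regulators were past it, both lower. These were *Mdm4*, the partner of MDM2 in restraining p53, with a log2 ratio of -0.63, and *Atr*, a kinase of the DNA damage response, with -0.61. Like *Trp53inp1*, *Mdm4* was high in the WT library with size factor 1.22, with 301 normalised reads against 45.5 and 31.8 in the other WT libraries and 130, 32.8 and 36.1 in KO. *Atr* had 122 in that WT library against 38.7 and 35.5, and 76.2, 13.5 and 18.1 in KO. From these reads the log2 ratio of *Mdm4* was -0.93 with 6 libraries, 0.78 without that WT library and -0.16 without the largest-factor library of each genotype. That of *Atr* was -0.87, -0.05 and -1.23 in the same order. Over the 6 genes of the list with reads per library, 2 were past 0.5 lower and 0 higher with 6 libraries. Of the 4298 genes, 29.3% were then past it in either direction. Without that WT library 0 were lower and 3 higher, beside 33.9% of the 4298 genes in either direction. With so few genes and these shares, no direction is read for the list. The next genes by size were *Sirt1*, a deacetylase of p53, with -0.26 and *Ep300*, an acetyltransferase of p53, with -0.19 in the authors' values.

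The genes that act next to WEE1 at the entry into mitosis mostly had low values. The files list 13 such genes, and 2 of them reached a mean value of 10. *Cdc25b* and *Cdc25a*, phosphatases that remove phosphates from cyclin-dependent kinases and so oppose WEE1, had log2 ratios of 0.91 and 0.39. *Cdc25b* had 17.5, 23.2 and 55.3 normalised reads in KO and 16.3, 12.5 and 11.0 in WT, so the lowest KO library was above the highest WT library. This separation rests on 17.5 against 16.3 normalised reads, and 3.0% of the 4298 genes showed it in this direction. For *Cdc25b* limma gave an unadjusted p of 0.0647 and an adjusted p of 0.999 over all 4298 genes. Its log2 ratio from reads was 1.27 with 6 libraries, 1.74 without the largest-factor library of each genotype and 0.10 in those alone. *Cdk1*, the kinase that WEE1 inhibits, had authors' values of 6.45 in WT and 4.81 in KO, and its cyclin *Ccnb1* had 1.17 and 1.43. *Pkmyt1*, the membrane-bound kinase related to WEE1, had 7.82 and 7.73. Of the G1/S genes 1 of 13 was past 0.5, *Ccne1* with 0.62, and of the replication genes 1 of 10, *Mcm2* with 0.63. Both were higher in KO, a direction in which 2.48% of all genes were past the limit. The next by size in these lists, all short of the limit, were *Ccnd1* (0.38), *Cdk2* (0.37) and *Cdkn1b* (0.31), and *Mcm5* (-0.34), *Rrm2* (0.33) and *Mcm4* (0.27). Of 7 paralogs of the described genes 1 was past it, *Gadd45g* at 300 in WT and 193 in KO, with *Ccni* (0.39), *Btg3* (-0.09) and *Tob2* (0.09) next by size. Of 10 BCL2 family genes 0 were, and the largest ratios were those of *Bmf* (0.36), *Bad* (-0.28), *Bid* (0.22) and *Bcl2l1* (0.14). Over all genes 10.4% were past 0.5 in either direction.

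**Figure D5:**
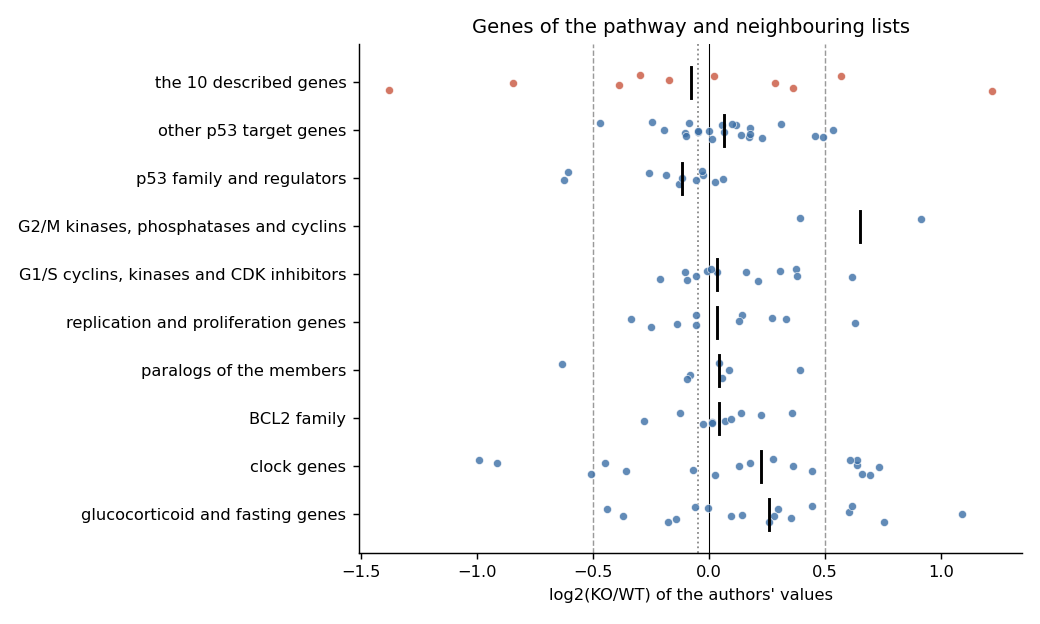
Log2 ratio of KO over WT of the authors' values for the 10 described genes (red) and for those genes of 9 further lists (blue) that reached a mean value of 10. Black bars are medians, dashed lines mark 0.5 and the dotted line the median of all genes. The p53 targets lie mostly between the lines, and the clock and fasting lists spread beyond them.

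*Wee1* and *Cdkn1a* are also known to answer to the clock and to fasting hormones, so lists of both kinds were read beside them. Of 18 clock genes 6 were past 0.5 higher in KO and 3 lower, beside 2.48% and 7.9% of all genes. The median log2 ratio of the 18 was 0.22. Among the higher ones were *Bhlhe40* (0.73), *Per3* (0.69), *Ciart* (0.66), *Tef* (0.64) and *Hlf* (0.64), of which *Bhlhe40* and *Ciart* encode repressors of the CLOCK complex. The lower ones were *Arntl* (-0.99) and *Clock* (-0.91), which encode the activators of the clock, and *Nr1d1* (-0.51). *Arntl* had 25.9, 12.6 and 15.8 normalised reads in KO and 96.3, 19.3 and 25.7 in WT, again highest in the WT library with size factor 1.22. Its log2 ratio from reads was -1.38 with 6 libraries, -0.32 without that library and -0.67 without the largest-factor library of each genotype. The hour at which the animals of each pool were killed is not given in the sources used here, so clock time and genotype cannot be told apart. The median log2 ratio of 17 glucocorticoid and fasting genes was 0.26. Of these 4 were past 0.5, all higher in KO, beside 2.48% of all genes higher and 7.9% lower. The 4 were *Zbtb16* (90.4 in WT and 193 in KO), *Irs2* (226 and 381), *Fkbp5* (593 and 908) and *Igfbp1* (1905 and 2893). The log2 ratios of the 17 genes ran from -0.44 to 1.09, and *Cdkn1a* was lower in KO. The part of fasting hormones in the ratios of *Wee1* and *Cdkn1a* was not tested.

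The liver label was met by the hepatocyte markers, with *Alb* at 1329546 in WT and 1332576 in KO, and 1 of the 5 markers, *Apob*, was past 0.5 (-0.52). Of 5 red cell markers 3 were past 0.5 higher in KO, beside 2.48% of all genes. The summed value of the 5 was 118783 in WT and 180301 in KO, and the highest, *Hba-a1*, was at 55601 and 82090. None of the 5 endothelial markers was past the limit, the highest being *Clec4g* at 682 and 663, while *Dcn* of the stellate markers (-0.50) and *Epcam* of the cholangiocyte markers (0.51) were. *Spp1*, the highest cholangiocyte marker, was at 122 and 157. The highest lymphocyte marker, *Cd79a*, was at 37.4 and 26.8, and the highest neutrophil marker, *S100a9*, at 4.88 and 6.22. The part of these cell types in the levels of the 10 genes was not tested.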

How the data were processed

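Liver RNA of 3 WT and 3 KO pools was sequenced by the authors' service as poly-A libraries. For each gene the authors deposited 1 signal per genotype, in reads over DESeq2 size factors. As worked out from the values, these signals split the mean over all 6 libraries by a shrunken ratio. The authors' own log2 ratios, p-values and calls fill the other columns of that table and were not used. Clean read counts and the percent of reads mapped were deposited per library, and 91.63 to 93.66% of clean reads were mapped. The submitters' processing notes name mm10, HISAT2, StringTie, Cufflinks, GATK, Bowtie2 and RSEM without versions.

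Log2 ratios of KO over WT were taken from the deposited signals with no pseudocount, and shares of all genes refer to those whose mean value was 10 or more. Each deposited mean equals a sum of 6 whole read numbers divided by 6 size factors. The worth of 1 read per library was found from values shared by at least 20 genes, and all sets of whole numbers within 1.1 times the rounding of the deposited digits were listed. Several remaining sets were resolved by the shrinkage seen in 1482 genes with a single set. Up to a sum of 620 this settled 9054 of 9155 genes (98.9%). A recovered library has its genotype from the deposited direction of genes with single reads and carries no pool number, and the genotype means from reads differ from the shrunken deposited values. Reads cover few of each library's reads, and counts carry their own counting error.

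limma 3.58.1 (R 4.3.3, empirical Bayes with trend, Benjamini-Hochberg) was run on log2(normalised reads + 1) of the 4298 resolved genes with a sum of at least 60. Recovery and limma were tested on simulated data. There 99.8 to 100% of the resolved genes had the right reads. limma called 36 of 92 genes with a log2 change of 1, 81 of 85 with a change of 2 and 3 of 4057 unchanged genes. The simulation held no library that stood apart, so these rates may not hold for the livers. With libraries as replicates, and pools of unknown overlap in litter, p-values measure the spread between these libraries. Named genes are the 10 genes, *Txndc5*, the 4 genes of each pathway list with the largest absolute log2 ratio (both where 2 reached a mean value of 10), the highest marker of each cell type and the 5 genes most like *Wee1*. Further genes named beside a count past 0.5, and *Cdk1*, *Ccnb1* and *Pkmyt1*, were chosen after their values were seen. The genes and lists were chosen with earlier results of these data known. Positions are from GENCODE M21 and promoter sequences from RefSeq, both on GRCm38. Alternatives were other pseudocounts, limits, centring, filters and the libraries left out.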

Additional observations from a re-analysis of the deposited data

How the results depend on the processing

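The count of 4 genes past 0.5 on the log2 scale was 2 with a limit of 1 and 8 with a limit of 0.25, and it stayed at 4 with a pseudocount of 1, with centring on the median of all genes and without the filter. The median log2 ratio of the 10 genes ranged from -0.08 to -0.03 over its alternatives. The 30 values of single genes with another pseudocount or centred moved by at most 0.05. Of the 56 values of the 7 genes with reads per library that leave libraries out, 51 moved by less than 1 SD between libraries from the ratio of all 6, and 5 by more. That SD is the gene's own and includes the libraries left out, so most moves had to be smaller and the count says little of stability. The largest move was that of *Trp53inp1* from -1.98 to -0.29 without the WT library with size factor 1.22. The sign turned in 4 of the 56, for *Mdm2* (to -0.75, -0.12 and -0.36 without the KO library with size factor 1.31 and the WT libraries with 0.879 and 0.818) and for *Bbc3* (to -0.01 without the largest-factor library of each genotype), neither of them past 0.5 with 6 libraries. Chosen after seeing the data, the count from recovered reads (4 of 7) was 4 without the largest-factor library of each genotype and 4 to 6 with each library left out in turn, with 6 without the KO library with size factor 1.31, where 41.9% of the 4298 genes were past the limit, against 27.9 to 38.3% without any other. The 20 of 111 genes of the 9 further lists past 0.5, beside 10.4% of all genes, were 20 with a pseudocount of 1. They were 1 with a limit of 1, beside 0.897% of all genes. The 10 of 46 with reads per library were 14 without the largest-factor libraries. The share of the 4298 genes rose as well, from 29.3 to 36.3%. limma called 0 genes with a pseudocount of 0.1, with a sum of at least 20 or 120 and without each library in turn (0 to 0), and 3 genes lower in KO with a term for the largest-factor library (2810474O19Rik, *Ddx3y* and Rnf8-cmtr1), of which none belongs to the 10. The cause of these differences was not tested. No paired analysis was possible because the genotypes share 1 pool number and the values carry none. For *Trp53*, *Ccng1* and *Btg2* the depth of the table gave no reads per library, and *Gadd45a* rests on so few reads that its ratio is limited by counting.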
